A study of Mus musculus with 9 samples.

Results

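Within the striatal RNA-seq of *Shank3* mutant mice, 2 libraries stood apart from the rest: replicate 3 of the heterozygous (HET) mice and replicate 3 of the knock-out (KO) mice, here called HET3 and KO3. They make up 2 of the 6 mutant libraries and 2 of all 9 libraries. They were chosen by their measured values, because they lay at one end of the first principal component of all 9 libraries, and they are compared here with the other 4 mutant libraries (HET1, HET2, KO1 and KO2), each within its own genotype. All differences between HET3 or KO3 and the other mutant libraries are therefore descriptions, with no test.

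The series holds the striatum of 3 wild-type (WT), 3 HET and 3 KO littermates, male mice aged 10 to 12 weeks on a C57BL/6J background, with 1 library per mouse. HET and KO mice carry the *Shank3B* allele, in which exons 13 to 16 of *Shank3* are targeted, on 1 or both chromosomes, in every cell of the body. Nothing in the labels or methods sets replicate 3 of either genotype apart by treatment, age or date. The tissue label was borne out by markers of the striatum: *Ppp1r1b*, which encodes the dopamine signalling protein DARPP-32, had a normalized count of 19984 in HET3 and 12449 in KO3 and between 16786 (WT3) and 31982 (WT2) in the other 7 libraries.

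The striatum is built mainly of medium spiny neurons, GABAergic projection cells that carry either dopamine D1 receptors (direct pathway) or D2 receptors (indirect pathway), with interneurons, astrocytes, oligodendrocytes, microglia and vessels among them. Shank3 is a scaffold protein of the postsynaptic density, the protein lattice under excitatory synapses. RNA from dissected tissue reflects both the makeup of the piece and the state of its cells, and in bulk samples fewer cells of a type and less RNA per cell cannot be told apart.

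The first principal component held 33.6% of the variance of log2(normalized count + 1) over 14239 genes. HET3 and KO3 had scores of 33.8 and 34.2 on it. The scores of the other mutant libraries were −17.0 (HET1), −6.25 (HET2), −13.7 (KO1) and −12.9 (KO2), and those of WT1, WT2 and WT3 were −15.0, 1.36 and −4.48. HET3 and KO3 were thus close to each other on this component and beyond all 3 WT libraries, of which WT2 lay nearest to them. On the second component, with 16.6% of the variance, HET3 (15.5) and KO3 (−6.75) were separated from each other. HET1 (17.5), KO1 (12.4) and WT1 (9.10) lay at its positive end, and HET2 (−18.2) and WT3 (−19.0) at its negative end.

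**Figure D1:**
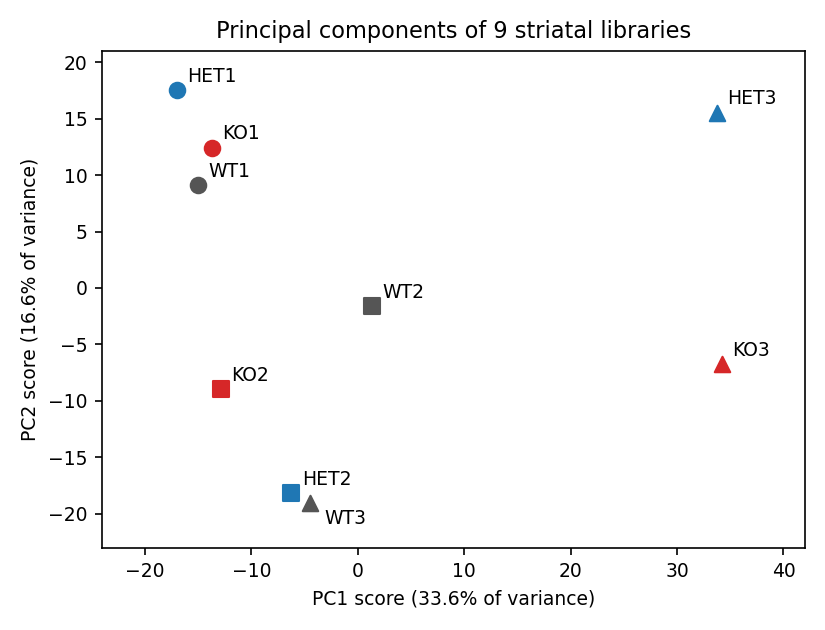
Scores of the 9 libraries on the first principal component (PC1, horizontal) and the second (PC2, vertical), from log2(normalized count + 1), with 1 point per library, coloured by genotype and shaped by replicate number. HET3 and KO3 lie near 34 on PC1, while the other 7 libraries lie between −17.0 and 1.36.

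Coding starts are shown, as examples picked for their base composition, for the genes of highest and lowest transcript GC content among the 12 with the largest positive and the 12 with the most negative difference described further on, with G and C in capitals. They were read from GENCODE M21 transcripts on GRCm38, 5′ to 3′ from the first coding base, and all show 90 bases except *mt-Atp8*, which is given over its whole coding length of 201 bases without the stop codon. *Rbm38* (chr2:173020498-173034734, plus strand, transcript GC content 61.3%) and *Olfr78* (chr7:102738511-102759471, minus strand, 39.7%) were higher in HET3 and KO3. *Tom1* (chr8:75033705-75070121, plus strand, 56.3%) and *mt-Atp8* (chrM:7766-7969, plus strand, 31.9%) were lower.
Rbm38: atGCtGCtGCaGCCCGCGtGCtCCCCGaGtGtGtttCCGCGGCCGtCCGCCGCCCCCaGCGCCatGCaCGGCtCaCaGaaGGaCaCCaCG
Olfr78: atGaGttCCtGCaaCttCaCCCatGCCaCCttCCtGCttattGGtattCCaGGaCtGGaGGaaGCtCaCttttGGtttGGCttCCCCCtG
Tom1: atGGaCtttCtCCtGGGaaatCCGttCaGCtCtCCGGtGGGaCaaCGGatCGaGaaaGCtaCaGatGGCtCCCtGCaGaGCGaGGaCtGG
mt-Atp8: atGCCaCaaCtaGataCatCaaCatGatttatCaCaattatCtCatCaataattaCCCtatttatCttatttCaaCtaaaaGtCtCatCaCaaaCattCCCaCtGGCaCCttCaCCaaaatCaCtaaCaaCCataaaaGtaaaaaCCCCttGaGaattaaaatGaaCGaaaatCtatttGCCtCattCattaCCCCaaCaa

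The difference of a gene was taken as the mean, over HET and KO, of replicate 3 minus the mean of replicates 1 and 2 on the scale log2(normalized count + 1), which understates the change of low genes. Its spread was taken from replicates 1 and 2 as their SD within genotype, pooled over HET and KO. A gene was called apart when replicate 3 lay beyond replicates 1 and 2 in the same direction in both genotypes and the difference was at least 1.5-fold. By this rule 644 of 14239 genes (4.52%) were higher and 687 (4.82%) were lower in HET3 and KO3, and 89 and 164 of them by at least 2-fold. The choice of the libraries used the same values, so nothing is read from these shares. The median difference over all genes was −0.0065 and the median spread 0.12. List counts with 1 library left out, given further on, have their own background over all genes. It was 644 higher and 741 lower without HET1, 816 and 849 without HET2, and 822 and 1125 without HET3. Without KO1 it was 669 and 748, without KO2 699 and 748, and without KO3 1039 and 1004.

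Across genes, the difference in HET and the difference in KO, which share no library, had a Pearson r of 0.51 (Spearman rho 0.58, 14239 genes), and 73.5% of genes had the same sign in both. For comparison, HET1 minus HET2 and KO1 minus KO2 had an r of 0.33 and 61.4% of genes with the same sign. The SD over genes was 0.45 for the difference in HET and 0.46 for that in KO, against 0.39 for HET1 minus HET2 and 0.34 for KO1 minus KO2. These contrasts are unlike, since 1 library minus 1 other carries more noise than 1 library minus a mean of 2. Each WT library minus the mean of the other 2, a contrast of the same form, had 0.33, 0.31 and 0.35 for WT1 to WT3. Genes are not independent replicates, and the points share the libraries behind them. HET3 and KO3 were chosen for lying together in these same values. A positive r and a high share of genes with the same sign follow from that choice, and nothing is read from them.

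**Figure D2:**
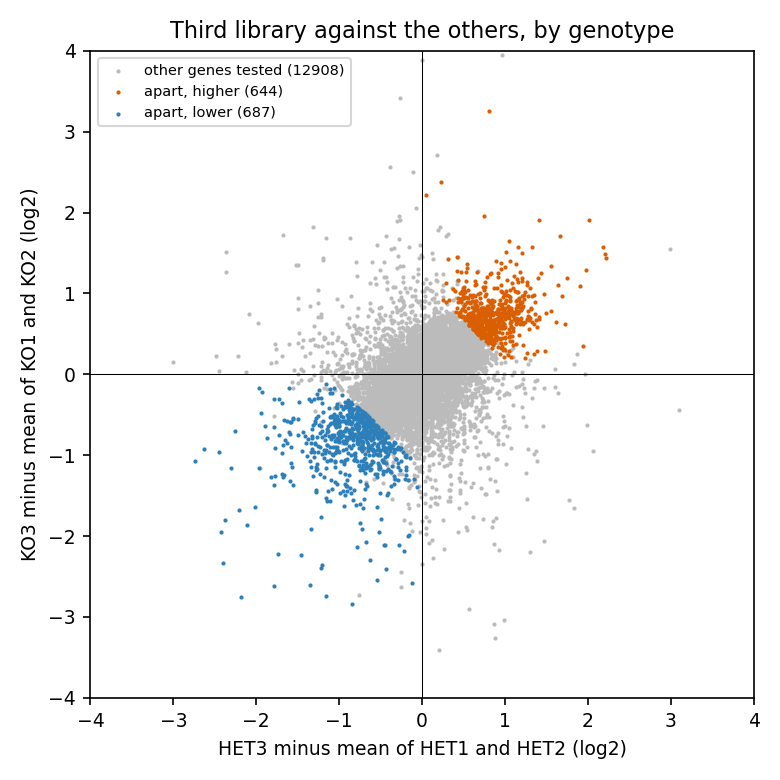
For each of 14239 genes, HET3 minus the mean of HET1 and HET2 (horizontal) against KO3 minus the mean of KO1 and KO2 (vertical), on the log2 scale, with genes apart in colour and 5 genes outside the axes. The cloud lies along the diagonal, with 644 genes apart at the upper right and 687 at the lower left.

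Among genes with a mean normalized count of at least 50 and no value of 0, the gene with the largest difference was *Dync1h1*, the heavy chain of the dynein motor that carries cargo along microtubules. Its normalized count was 74955 in HET3 and 64483 in KO3, against 15608 and 17590.5 in HET1 and HET2 and 20291 and 23144 in KO1 and KO2 and 15189, 32328 and 26125 in WT1 to WT3 (log2 difference 1.88, spread 0.13). Both libraries were above every other library, and the WT mice themselves differed by over 2-fold. *Mlec* encodes malectin, a lectin of the endoplasmic reticulum, and had 330.1 in HET3 and 323 in KO3, against 59.6 and 84.4 in HET1 and HET2 and 112 and 117 in KO1 and KO2 and 156, 141 and 43.9 in WT1 to WT3 (log2 difference 1.85, spread 0.25). *Kif24*, a kinesin of the centriole, had 1375 in HET3 and 801 in KO3, against 313 and 279.9 in HET1 and HET2 and 297 and 291 in KO1 and KO2 and 215, 409 and 321 in WT1 to WT3 (log2 difference 1.83, spread 0.081). *Mdn1* encodes midasin, a giant ATPase of ribosome assembly, with 5204 in HET3 and 4997 in KO3, against 1592 and 1703 in HET1 and HET2 and 1638 and 1419.8 in KO1 and KO2 and 1521, 1309 and 1313 in WT1 to WT3 (log2 difference 1.69, spread 0.11). In these 4 genes the lowest of HET3 and KO3 was above the highest of the other 7 libraries.

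The other genes among the 12 were *F2rl2*, a protease-activated receptor (1.66), *Lhfp* (1.63), *Arvcf*, a catenin of cell junctions (1.5), and the RNA-binding protein gene *Rbm38* (1.47). They also included *Xpo6*, which exports actin from the nucleus (1.45), *Elfn1*, a postsynaptic adhesion protein (1.37), the olfactory receptor gene *Olfr78* (1.37) and the matrix gene *Hmcn2* (1.34). *Elfn1* had the smallest spread of the 12 genes, with 2115 in HET3 and 1671 in KO3, against 663 and 698 in HET1 and HET2 and 761 and 798 in KO1 and KO2 and 799.6, 946 and 968 in WT1 to WT3 (spread 0.05). *Olfr78*, *Hmcn2* and *Rbm38* varied most among the other mutant libraries (spread 0.73, 0.84 and 0.61). *Olfr78*, for example, had 193 in HET3 and 279 in KO3, against 118 and 62.5 in HET1 and HET2 and 139.6 and 62.2 in KO1 and KO2 and 43.9, 93.2 and 146 in WT1 to WT3, so that KO1 and WT3 were within 1.5-fold of HET3.

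**Figure D3:**
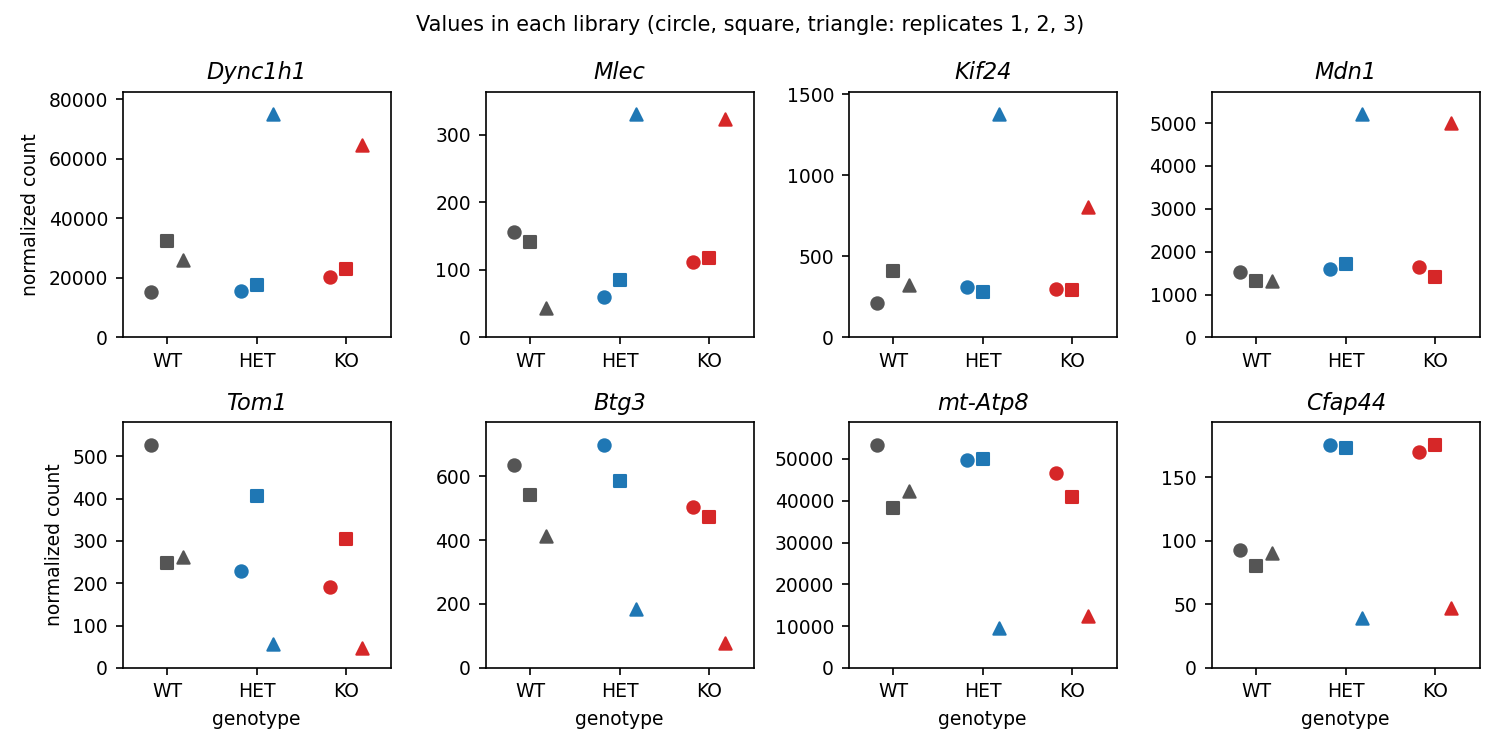
Normalized count (vertical, linear from 0) in each of the 9 libraries, with 1 point per library and the replicate number given by the shape. Shown are the 4 genes with the largest and the 4 with the most negative difference. They were taken from genes with a mean of at least 50 and no 0. In all 8 genes the triangles of HET and KO stand beyond the other points, while the WT triangle does not stand with them.

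Among the lower genes with a mean normalized count of at least 50 and no value of 0, *Tom1*, an endosomal sorting factor, had the most negative difference. Its normalized count was 57.0 in HET3 and 46.8 in KO3, against 229.8 and 407 in HET1 and HET2 and 189.9 and 304 in KO1 and KO2 and 528, 247 and 263 in WT1 to WT3 (log2 difference −2.37, spread 0.53). *Btg3*, an antiproliferative gene, had 185 in HET3 and 78.6 in KO3, against 698 and 586 in HET1 and HET2 and 505 and 473 in KO1 and KO2 and 633, 540.3 and 412 in WT1 to WT3 (log2 difference −2.20, spread 0.14). *Cfap44*, a gene of the ciliary axoneme, had 39.5 in HET3 and 46.8 in KO3, against 175 and 173 in HET1 and HET2 and 169 and 175 in KO1 and KO2 and 92.3, 79.7 and 90.3 in WT1 to WT3 (log2 difference −1.99, spread 0.027). In *Cfap44* the WT libraries lay between the 2 levels of the mutant libraries, about 2-fold below HET1, HET2, KO1 and KO2. *Gtf3c2*, a subunit of the general factor TFIIIC for RNA polymerase III, had 278 in HET3 and 133 in KO3, against 706 and 699.8 in HET1 and HET2 and 478 and 534 in KO1 and KO2 and 658, 699 and 580.3 in WT1 to WT3 (log2 difference −1.63, spread 0.08).

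Neuropeptide genes were among the 12 as well. *Trh*, the precursor of thyrotropin-releasing hormone, had 20.4 in HET3 and 9.78 in KO3, against 58.3 and 48.9 in HET1 and HET2 and 47.1 and 87.9 in KO1 and KO2 and 72.6, 67.9 and 84.6 in WT1 to WT3 (log2 difference −1.98, spread 0.46). *Nts*, the neurotensin precursor, had 50.7 in HET3 and 60.4 in KO3, against 184 and 130.0 in HET1 and HET2 and 120.0 and 193 in KO1 and KO2 and 101, 54.2 and 30.7 in WT1 to WT3 (log2 difference −1.45, spread 0.42), and here WT3 was below both HET3 and KO3. *Dlk1*, an imprinted gene of a Notch-related membrane protein, had 89.6 in HET3 and 51.0 in KO3, against 354 and 122 in HET1 and HET2 and 141 and 496 in KO1 and KO2 and 227, 91.5 and 38.5 in WT1 to WT3 (log2 difference −1.78, spread 1.18), so that WT3 was again lower than both. The transcription factor gene *Cebpd* (−1.45, spread 0.25) and *Grk1*, the rhodopsin kinase gene (−1.36, spread 0.21), were below all other libraries. The remaining 3 of the 12 were encoded by mitochondrial DNA.

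Mitochondrial DNA encodes 13 proteins, all subunits of the respiratory chain and the ATP synthase, and all 13 genes were tested. Of these, 0 were apart and higher and 7 were apart and lower, beside backgrounds of 4.52% and 4.82%, and the median difference was −0.68. Their summed normalized count was 2035341 in HET3 and 2218506 in KO3, against 2645693 to 3197848 in the other 7 libraries. *mt-Atp8*, a small subunit of the ATP synthase, had 9610.3 in HET3 and 12468 in KO3, against 49644 and 49888 in HET1 and HET2 and 46647 and 40805 in KO1 and KO2 and 53429, 38240.1 and 42227 in WT1 to WT3 (log2 difference −2.09, spread 0.10). *mt-Co2*, a subunit of cytochrome c oxidase, had 52385 in HET3 and 152629 in KO3, against 307811 and 344016 in HET1 and HET2 and 293417 and 287656 in KO1 and KO2 and 264492, 351659 and 321723 in WT1 to WT3 (log2 difference −1.78, spread 0.081). *mt-Nd3*, a subunit of complex I, had 3808 in HET3 and 6969 in KO3, against 15649 and 22770.1 in HET1 and HET2 and 16651 and 14654 in KO1 and KO2 and 14714, 15368 and 15216 in WT1 to WT3 (log2 difference −1.74, spread 0.29). The other 4 were *mt-Nd6* (−1.01), *mt-Nd1* (−0.83), *mt-Nd4l* (−0.82) and *mt-Nd2* (−0.68).

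The mitochondrial genes did not move as a block. *mt-Co1*, the most abundant gene of the list, had 649068 in HET3 and 643442 in KO3, against 849116 and 827059 in HET1 and HET2 and 891279.6 and 739390.1 in KO1 and KO2 and 852375, 867475 and 831473 in WT1 to WT3 (log2 difference −0.35, spread 0.14), below the other libraries but within 1.5-fold. *mt-Nd5* had a difference of −0.052 and *mt-Cytb* of −0.24, and *mt-Nd4* was at 0.21, on the other side of 0. *mt-Atp8* overlaps *mt-Atp6* (−0.51), and *mt-Nd4l* overlaps *mt-Nd4* in the mitochondrial genome, so that reads from the overlaps may have been shared out between them. The genes lie on long precursor RNAs that are cut into shorter messengers, and genes that overlap need not be cut apart. SDs over the 13 genes were 0.93 for the difference in HET and 0.58 for that in KO, against 0.30 for HET1 minus HET2 and 0.34 for KO1 minus KO2. For WT1 to WT3, each minus the mean of the other 2, they were 0.40, 0.22 and 0.21.

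Nuclear genes of oxidative phosphorylation were found apart on both sides. Of 77 tested, 6 were higher (7.79%) and 11 lower (14.3%), beside 4.52% and 4.82% of all genes, with a median of −0.042. The catalytic beta subunit of the ATP synthase, *Atp5b*, was the most abundant and had 62273 in HET3 and 49245 in KO3, against 31044 and 34316 in HET1 and HET2 and 30736 and 32091 in KO1 and KO2 and 31423, 36784 and 32243 in WT1 to WT3 (log2 difference 0.79, spread 0.079). *Ndufb4*, an accessory subunit of complex I, had 160.3 in HET3 and 206 in KO3, against 399 and 481 in HET1 and HET2 and 394 and 403 in KO1 and KO2 and 383, 367 and 324 in WT1 to WT3 (log2 difference −1.20, spread 0.14). Subunits of one complex thus lay on opposite sides: *Ndufa1* (0.82), *Ndufa13* (0.72), *Ndufs7* (0.70) and *Ndufa9* (0.63) of complex I were higher, and *Ndufb4*, *Ndufc2* (−0.96) and *Ndufb5* (−0.93) of the same complex were lower. In cytochrome c oxidase, *Cox7b* (0.81) was higher while *Cox7c* (−1.04) and *Cox6c* (−0.68) were lower. The SD over these 77 genes was 0.58 in HET and 0.44 in KO, against 0.21 for HET1 minus HET2 and 0.17 for KO1 minus KO2. For WT1 to WT3, each minus the mean of the other 2, it was 0.13, 0.19 and 0.18.

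Ribosomal protein genes encode the protein part of the ribosome's small and large subunits, and they also held genes apart on both sides. Of 79 tested, 6 were higher (7.59%) and 10 lower (12.7%), beside 4.52% and 4.82% of all genes, with a median of −0.068. *Rps15a* of the small subunit had 8243 in HET3 and 6345 in KO3, against 3931 and 3993 in HET1 and HET2 and 4681 and 3540.2 in KO1 and KO2 and 4551, 4528 and 4175 in WT1 to WT3 (log2 difference 0.85, spread 0.20), and *Rpl35* of the large subunit had 999 in HET3 and 866 in KO3, against 2085 and 2464 in HET1 and HET2 and 2097 and 2089.8 in KO1 and KO2 and 2126, 1782 and 1928 in WT1 to WT3 (log2 difference −1.23, spread 0.12). *Rplp1* (0.78) and *Rplp2* (0.72), the stalk proteins, were both higher, as were *Rpl37* (0.81), *Rpl10* (0.77) and *Rps28* (0.66). *Rps25* (−1.1), *Rpl24* (−1.01) and *Rpl14* (−0.98) were lower, and *Rpl3*, the most abundant, was at 0.12. Many ribosomal protein genes have processed pseudogenes that could take part of their reads, so single values are uncertain. The list's SD was 0.53 in HET and 0.43 in KO, against 0.40 for HET1 minus HET2, close to that in KO, and 0.18 for KO1 minus KO2. For WT1 to WT3, each minus the mean of the other 2, it was 0.23, 0.24 and 0.13. With quantile normalization 3 were higher and 13 lower, and without KO3 11 and 8.

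The coding starts of the members at either end are shown for comparison, with G and C in capitals. *Rps15a* lies at chr7:118104372-118116188 (minus strand, transcript GC content 45.4%) and *Rpl35* at chr2:39001580-39005624 (minus strand, 56.7%). In these first 90 coding bases, 47 and 48 were G or C.
Rps15a: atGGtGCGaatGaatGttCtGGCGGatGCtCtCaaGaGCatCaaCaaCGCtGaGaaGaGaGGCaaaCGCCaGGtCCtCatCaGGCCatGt
Rpl35: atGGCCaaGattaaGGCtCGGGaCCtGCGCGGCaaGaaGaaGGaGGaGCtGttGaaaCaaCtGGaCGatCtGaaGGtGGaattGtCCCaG

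In the mitochondrial ribosome, a list added after the values were seen, 1 of 78 genes was higher (1.28%) and 10 were lower (12.8%), beside 4.52% and 4.82% of all genes (median −0.14). *Mrpl2* had 1379 in HET3 and 1382 in KO3, against 689 and 699 in HET1 and HET2 and 768 and 631 in KO1 and KO2 and 680.0, 825 and 806 in WT1 to WT3 (log2 difference 0.99, spread 0.14), and *Mrps18c* had 142 in HET3 and 173 in KO3, against 332 and 419 in HET1 and HET2 and 362 and 336 in KO1 and KO2 and 362, 275 and 326 in WT1 to WT3 (log2 difference −1.20, spread 0.18). *Mrpl3*, the most abundant member, was at −0.26. Without KO3, 2 genes of the list were higher and 13 lower.

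**Figure D4:**
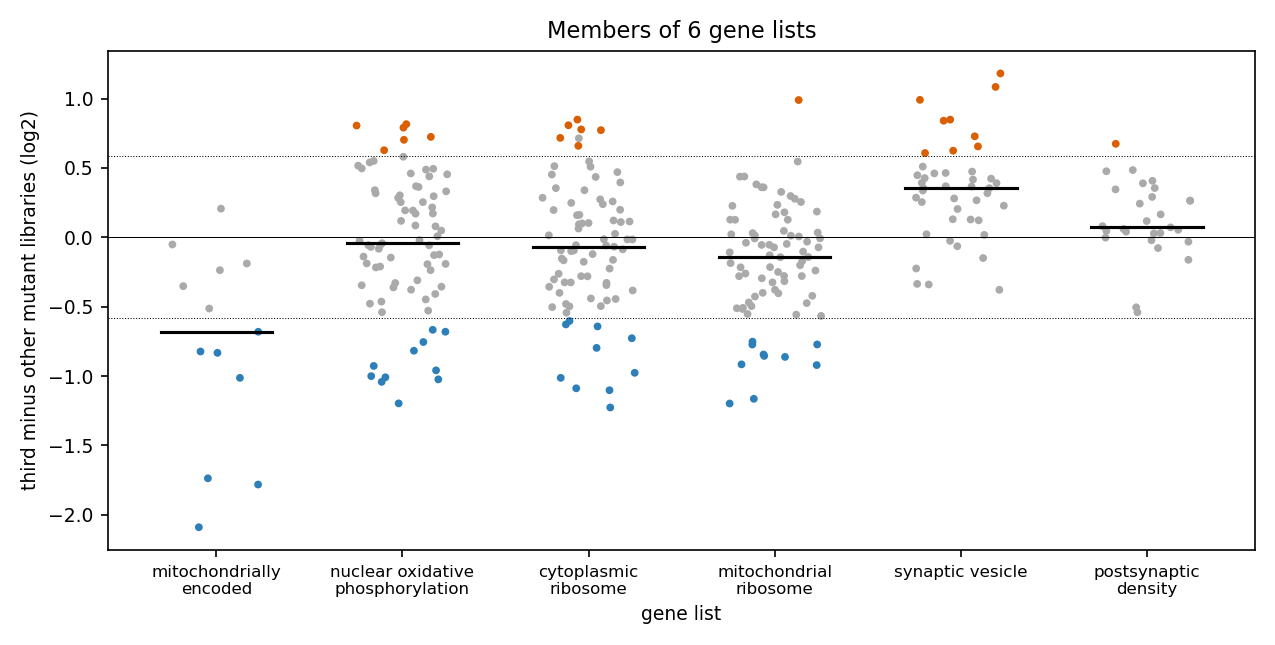
Difference of the third from the other mutant libraries (log2, vertical) for each tested gene of 6 lists, with genes apart in colour, the list medians as bars and the 1.5-fold limits dotted. In the mitochondrially encoded and synaptic vesicle lists the genes apart lie on 1 side, and the nuclear oxidative phosphorylation and ribosome lists hold genes apart on both sides.

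Genes of synaptic vesicles and their release made up another list that was added after the values were seen. Of its 43 genes 9 were apart and higher (20.9%, beside 4.52% of all genes) and 0 lower. The median difference was 0.35, but 0.13 with quantile normalization, where 5 were higher and 0 lower. Without HET2, 10 were higher and 1 lower, and without HET3, 9 and 2. Under the normalization as deposited the summed normalized count was 894419 in HET3 and 932726 in KO3, against 598252 to 722708 in the other 7 libraries. *Nsf*, the ATPase that takes apart SNARE complexes after fusion, had 52037 in HET3 and 48593 in KO3, against 20778 and 22718 in HET1 and HET2 and 21827 and 23472 in KO1 and KO2 and 22896, 28808 and 25771 in WT1 to WT3 (log2 difference 1.18, spread 0.083). *Rab3a*, a vesicle GTPase, had 36749.6 in HET3 and 33346 in KO3, against 15412 and 17748 in HET1 and HET2 and 16014 and 16977 in KO1 and KO2 and 16056, 19541 and 18545 in WT1 to WT3 (log2 difference 1.08, spread 0.11). *Dnm1*, the dynamin of vesicle recycling, had 67874 in HET3 and 72028 in KO3, against 29554 and 41838 in HET1 and HET2 and 32341 and 38306 in KO1 and KO2 and 30106, 45914 and 45911 in WT1 to WT3 (log2 difference 0.99, spread 0.28). Also apart and higher were *Cplx2* (0.84), *Napa* (0.73), *Rab3d* (0.66), *Bsn* (0.62) and *Syt1* (0.61). *Snap25*, a SNARE protein and the most abundant, was at 0.34, and its partner *Vamp2* was at −0.025 with 26357 in HET3 and 31386 in KO3, against 25888 and 33819 in HET1 and HET2 and 25933 and 32351 in KO1 and KO2 and 27077, 33765 and 34492 in WT1 to WT3.

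The postsynaptic density list held 1 gene apart of 28 (3.57% higher, near the 4.52% of all genes), with a median of 0.076, or −0.075 with quantile normalization. That gene was *Camk2a*, a kinase of synaptic plasticity and the most abundant of the list, with 132119 in HET3 and 136571 in KO3, against 81888 and 86615 in HET1 and HET2 and 87762 and 80733 in KO1 and KO2 and 80379, 100713 and 95354 in WT1 to WT3 (log2 difference 0.67, spread 0.073). *Camk2b* was at 0.06 and *Dlg4*, which encodes PSD-95, at 0.48. In this list 1 gene was higher and 1 lower with quantile normalization, without HET2 and without HET3. Without KO3, 2 were higher and 0 lower. Of 52 dynein and kinesin genes (a list added after the values were seen), 3 were higher and 3 lower (5.77% each, near the share over all genes), and 5 and 9 without HET3 and 6 and 0 without KO3. Beside *Dync1h1*, the dynein light chain gene *Dynlrb1* was higher (0.65), while the intermediate chains *Dync1i1* (0.37) and *Dync1i2* (0.19) and *Kif5a* (0.061), the most abundant, were within 1.5-fold. Of 20 adhesion G-protein-coupled receptors, added in the same way, 3 were higher (15.0%, beside 4.52% of all genes): *Adgra1* (1.34), *Adgrb1* (1.13) and the latrophilin *Adgrl1* (0.86). *Adgra1* had 4994 in HET3 and 4630.0 in KO3, against 1831 and 1871 in HET1 and HET2 and 1879 and 2009.8 in KO1 and KO2 and 1947, 2330.3 and 2672 in WT1 to WT3 (spread 0.051).

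Markers of cell types were then examined, to see which cells the axis follows. Of 238 markers in 19 lists, 207 were tested, and 6 (2.90%) were apart and higher and 17 (8.21%) lower, beside 4.52% and 4.82% of all genes, with a median difference of 0.0011. In several lists HET3 and KO3 lay on opposite sides of the other libraries of their genotype. Markers of medium spiny neurons had a median difference of 0.20 in HET and −0.27 in KO, and their summed normalized count was 318257 in HET3 against 294982 and 231825 in HET1 and HET2, 188592 in KO3 against 250072 and 220123 in KO1 and KO2, and 301981, 336477 and 181199 in WT1 to WT3. *Adcy5*, the adenylyl cyclase of these neurons and their most abundant marker, had 47661 in HET3 and 26889 in KO3, against 34836 and 26108 in HET1 and HET2 and 30052 and 26733 in KO1 and KO2 and 34963, 41757 and 20843 in WT1 to WT3. Of the 17 markers 0 were higher and only *Ppp1r1b* was apart and lower (log2 difference −0.59, spread 0.14), below the other libraries of its genotype in both HET3 and KO3 but above WT3 in HET3. Leaving out 1 library changed the count of this list, to 3 lower without HET2, 4 lower without HET3, 1 higher and 0 lower without HET1 or KO1, and 2 higher and 0 lower without KO3.

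Direct pathway markers had a median of 0.13 in HET and −0.92 in KO, and 2 of 7 were apart (28.6% lower, beside 4.82% of all genes), both peptide precursors and both lower. Without HET3, 4 were lower, and without HET2, 3. Without KO3, 1 was higher and 2 lower (median 0.13). *Tac1*, which encodes substance P, had 1664 in HET3 and 1390.0 in KO3, against 3301 and 2264 in HET1 and HET2 and 2944 and 2882 in KO1 and KO2 and 3049, 3069.9 and 1634 in WT1 to WT3 (log2 difference −0.89, spread 0.27), and WT3 was at the level of HET3. *Pdyn*, the dynorphin precursor, had 1178 in HET3 and 959.7 in KO3, against 2369 and 1340.2 in HET1 and HET2 and 1889 and 2179 in KO1 and KO2 and 1642, 1390.4 and 1130.4 in WT1 to WT3 (log2 difference −0.84, spread 0.42). The receptor gene *Drd1*, the most abundant of the list, was not apart (−0.27, spread 0.37). Indirect pathway markers had a median of 0.40 in HET and −0.27 in KO with 0 of 6 apart (1 lower without HET2, HET3 or KO2, or with quantile normalization, and 2 higher without KO3). *Penk*, the enkephalin precursor, came nearest, with 15407 in HET3 and 10857 in KO3, against 20939.9 and 19018 in HET1 and HET2 and 18919 and 18036 in KO1 and KO2 and 20022, 24454 and 12864 in WT1 to WT3 (log2 difference −0.57, spread 0.078). *Drd2* had 5160.2 in HET3 and 2481 in KO3, against 3447 and 2613 in HET1 and HET2 and 2984 and 2647 in KO1 and KO2 and 3551, 4703 and 2058 in WT1 to WT3, the highest value in HET3 and a low one in KO3.

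Among 14 interneuron markers 0 were higher and 2 lower (14.3%, beside 4.82% of all genes), or 4 lower without HET3. *Nkx2-1*, the transcription factor of the lineage, had 33.8 in HET3 and 19.5 in KO3, against 73.8 and 94.8 in HET1 and HET2 and 54.6 and 54.3 in KO1 and KO2 and 64.4, 81.1 and 51.5 in WT1 to WT3 (log2 difference −1.36, spread 0.18), and *Pvalb*, the marker of fast-spiking cells, had a difference of −0.72 (spread 0.37). *Cck*, the most abundant, was at 0.33. Of 14 markers of cortical glutamatergic neurons, which mark cortex in the dissection, 1 was apart and higher (7.14%, beside 4.52% of all genes), *Lamp5* (0.65). With quantile normalization and without KO3 the count of higher genes was 0, and without HET3 it was 4. The median was 0.067 in HET and 0.42 in KO, and *Slc17a7*, the vesicular glutamate transporter, had 33641 in HET3 and 43336 in KO3, against 26609 and 37282 in HET1 and HET2 and 29713 and 33842 in KO1 and KO2 and 30867, 32622 and 39129.9 in WT1 to WT3. The summed level of the cortical list was 60559 in HET3 and 77746 in KO3, against 48089 to 68355 in the other 7 libraries, so that only KO3 was outside their range. Thalamic and septal markers had 0 of 10 apart, or 2 higher and 1 lower without KO3 (*Ntng1* −0.35, *Tcf7l2* 0.44). Of 10 hypothalamic markers only *Trh* and *Pomc* were tested.

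Oligodendrocyte markers had a median of 0.26 in HET and −0.59 in KO. Their summed normalized count was 283944 in HET3 against 253798 and 283272 in HET1 and HET2, 158265 in KO3 against 250390.1 and 275309 in KO1 and KO2, and 190745, 179959 and 295268 in WT1 to WT3. KO3 was the lowest of the 9 libraries, and HET3 was close to HET2. *Mbp*, a myelin protein and the most abundant, had 95560.2 in HET3 and 53066 in KO3, against 96949.8 and 119417 in HET1 and HET2 and 98917 and 110356 in KO1 and KO2 and 75118, 69792 and 116028 in WT1 to WT3, and *Opalin*, the only one of 16 apart, had a difference of −0.61 (spread 0.13). The 1 of 16 lower is 6.25%, beside 4.82% of all genes. With quantile normalization 4 oligodendrocyte markers were lower (median −0.33, against −0.13), and 8 were lower in KO3 when HET3 was left out. Without KO3, 2 were higher and 0 lower, and without HET2 or KO2 0 were apart. Precursor cell markers had 0 of 10 apart (2 lower without HET3, 2 higher without KO3), with *Olig1* at −0.58 and *Tnr* at 0.03. In astrocytes 2 of 16 markers were higher (12.5%, beside 4.52% of all genes), or 1 with quantile normalization, where the median was −0.060 against 0.094, and 1 without HET1 or HET3. They were the connexin *Gjb6* (0.67) and *Ntsr2* (0.60), while *Slc1a2*, the most abundant, was at 0.14 and *Gfap* at −0.021.

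Of 15 microglial markers 1 was higher (6.67%) and 3 were lower (20.0%), beside 4.52% and 4.82% of all genes, and with quantile normalization 1 was higher and 1 lower. *Trem2*, a lipid receptor, had 865 in HET3 and 724 in KO3, against 405 and 479 in HET1 and HET2 and 526 and 367 in KO1 and KO2 and 400.1, 511 and 426 in WT1 to WT3 (log2 difference 0.85, spread 0.29). Its signalling partner *Tyrobp* had 251 in HET3 and 266 in KO3, against 387 and 442 in HET1 and HET2 and 385 and 383 in KO1 and KO2 and 372, 371 and 363 in WT1 to WT3 (log2 difference −0.62, spread 0.094). The genes of complement C1q, whose 3 chains form 1 protein, were at −0.92 (*C1qa*), 0.21 (*C1qb*) and −0.49 (*C1qc*), and *Aif1* at −0.61. *Csf1r*, the most abundant, was at 0.13 and *Cx3cr1* at 0.18.

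Of 16 endothelial markers 1 was apart and higher (6.25%, near the 4.52% of all genes). It was the receptor gene *Eng* (log2 difference 0.87, spread 0.28), while *Slc2a1* (−0.031) and *Cldn5* (0.058) were not apart. Mural markers had 0 of 12 apart, or 2 higher with quantile normalization and without HET2, KO2 or KO3 (*Rgs5* 0.18, *Anpep* 0.59). Markers of the meninges had a median of −0.13 in HET and 1.0 in KO with 0 of 14 apart, and HET1 and HET2 differed widely. Without HET2, 11 of the 14 were apart and higher (median 0.92), beside 816 of all 14239 genes. The count without HET3 was also 11 (median 1.0), beside 822 of all genes. The median was −0.035 without HET1, with 0 apart. It was 0.084 without KO1 with 0 higher and 1 lower, and −0.13 without KO3 with 0 higher and 2 lower. *Igf2*, for example, had 1006 in HET3 and 1292 in KO3, against 508 and 2194 in HET1 and HET2 and 422 and 1102 in KO1 and KO2 and 604, 1104 and 1090.0 in WT1 to WT3, and *Slc13a4* a difference of 0.99 with a spread of 1.86. Blood markers had 0 of 3 apart (*Hba-a2* 0.13, *Hbb-bt* −0.21), and the Y-linked genes 0 of 3 (*Kdm5d* −0.0015, *Ddx3y* −0.15).

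Markers of the ependyma, the lining of the ventricle, were lowest in KO3. They had a median of 0.13 in HET and −1.25 in KO, and their summed normalized count was 769 in HET3 against 670.1 and 825 in HET1 and HET2, 471 in KO3 against 839.8 and 1123 in KO1 and KO2, and 582, 589.8 and 876 in WT1 to WT3. *Rarres2* was the only 1 of 10 apart (log2 difference −1.14, spread 0.27), or 10.0% lower, beside 4.82% of all genes. In KO3, 7 were lower when HET3 was left out. Without HET1 3 were lower, without HET2 2, and without KO3 1 was higher and 0 lower. *Foxj1*, the ciliogenesis factor, had 226 in HET3 and 133 in KO3, against 195 and 264 in HET1 and HET2 and 213 and 309 in KO1 and KO2 and 157, 159 and 287 in WT1 to WT3. Neuroblast markers of the subventricular zone had a median of 0.082 in HET and −1.0 in KO. Of 13, 1 was higher (7.69%) and 4 were lower (30.8%), beside 4.52% and 4.82% of all genes, against 0 and 8 in KO3 when HET3 was left out and 2 lower without KO2 or KO3. Over all 14239 genes 822 were higher and 1125 lower when HET3 was left out. *Dlx5* (−0.92 in HET and −1.38 in KO) and *Sox4* (−0.63 and −1.0) were lower in both genotypes and below all WT libraries. *Top2a* (−0.061 and −1.40) and *Dlx2* (−0.29 and −1.10) differed mainly in KO3, and WT2 was below HET3 in both. The tubulin gene *Tubb2b*, the most abundant, was higher, with 11050.3 in HET3 and 8965 in KO3, against 5535 and 5536 in HET1 and HET2 and 5873 and 6118 in KO1 and KO2 and 5574, 5904 and 6277 in WT1 to WT3 (log2 difference 0.79, spread 0.029). Of 17 choroid plexus markers, 9 were tested. Of these, 2 were lower (22.2%, beside 4.82% of all genes), or 2 higher and 5 lower without KO3. The genes apart were *Clic6* (−1.29) and *Prlr* (−1.46). *Prlr* was at low counts, with 5.52 in HET3 and 4.83 in KO3, and WT1 (4.89) was below HET3. Its difference was −0.62 in HET and −2.29 in KO. *Ttr*, the defining transcript of the choroid plexus, was not among the genes tested. *Folr1* and *Kl* had 5.03 and 33.6 in HET3. The part of tissue makeup in the difference between HET3 or KO3 and the other libraries was not tested.

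Programmes of cell state came next. Of 25 immediate early genes, 1 was higher and 1 lower (4.0% each, near the 4.52% and 4.82% of all genes), and with quantile normalization 0 were higher and 1 lower. Without KO2 and without KO3, 3 and 4 were higher and 0 lower. *Egr1*, a transcription factor induced by activity, had 19111 in HET3 and 16832 in KO3, against 9943 and 11508 in HET1 and HET2 and 11177 and 14765 in KO1 and KO2 and 13806, 13508 and 15743 in WT1 to WT3 (log2 difference 0.61, spread 0.23), *Fosb* was lower (−0.63), and *Egr2* (0.64), *Fos* (0.37) and *Arc* (0.37) were not apart. Among 13 genes of the glucocorticoid response 2 were lower (15.4%, beside 4.82% of all genes; 5 without HET2, 4 without HET3 or KO2), *Sgk1* and the metallothionein *Mt2* (−0.67). *Sgk1* had 1829.7 in HET3 and 1738 in KO3, against 5653 and 2136 in HET1 and HET2 and 5512 and 2369 in KO1 and KO2 and 4531, 1621 and 2353 in WT1 to WT3 (log2 difference −0.99, spread 0.93), with HET1, KO1 and WT1 well above the rest, and *Per1* was at −0.10. In the heat shock list 1 of 12 was higher (8.33%, beside 4.52% of all genes, and 0 without KO3), *Hspa1a* (log2 difference 0.65, spread 0.07). *Hspa8*, the most abundant, had 80958 in HET3 and 79719 in KO3, against 57910.2 and 58803 in HET1 and HET2 and 57008 and 57166 in KO1 and KO2 and 59141, 64319.5 and 59161 in WT1 to WT3. *Sdf2l1* was the only endoplasmic reticulum stress gene apart of 10 (log2 difference 1.04), or 10.0% higher, beside 4.52% of all genes. *Calr* was at 0.084.

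Of 20 genes of cholesterol synthesis 2 were higher (10.0%, beside 4.52% of all genes), among them *Dhcr7* (0.60), an enzyme of the last steps. The count of higher genes was 0 with quantile normalization and 1 without HET2, HET3, KO2 or KO3. *Hmgcs1*, the most abundant, was at −0.06. In the circadian clock list 3 of 17 were apart, 2 higher (11.8%, beside 4.52% of all genes) and 1 lower (5.88%, beside 4.82%), and with quantile normalization, without HET2 or without KO2, 1 was higher and 1 lower. The 3 genes apart were *Dbp* (0.79) and *Nr1d1* (0.61), which were higher, and *Nfil3* (−0.94), a repressor that opposes *Dbp* at the same sites, which was lower. *Dbp* had 6102 in HET3 and 4527 in KO3, against 3219 and 3183 in HET1 and HET2 and 2996 and 2788 in KO1 and KO2 and 3626, 4297 and 3761 in WT1 to WT3 (spread 0.053), and *Tef* was at 0.22. Of 11 interferon genes 1 was higher (9.09%, beside 4.52% of all genes), *Usp18* (0.66), and 1 lower (9.09%, beside 4.82%), *Oasl2* (−0.80). The count of higher genes was 0 with a pseudocount of 5, with a mean of at least 50 and without HET1, and 4 without HET3.

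The other families are set beside the shares over all genes, 4.52% higher and 4.82% lower. The background changed as well when a library was left out. Over all 14239 genes 816 were higher and 849 lower without HET2, 822 and 1125 without HET3, and 1039 and 1004 without KO3, against 644 and 687. Of 54 collagen and laminin genes 3 were higher (5.56%) and 7 lower (13.0%), but 9 and 8 without HET2, 8 and 6 without HET3 and 4 and 13 without KO3, with *Col2a1* at −1.24 (spread 0.60) and *Col6a1* at −0.25. The basement membrane chains *Col4a3* (−1.23) and *Col4a4* (−0.97), whose genes are neighbours, were both lower, at low counts. *Col4a3* had 7.47 in HET3 and 5.81 in KO3, and *Col4a4* 11.5 and 14.2, with WT2 below both at 11.1. With a mean of at least 50, 3 collagen and laminin genes were higher and 4 lower. Of 28 histone genes 3 were higher (10.7%) and 5 lower (17.9%), but 3 and 10 without HET2, 2 and 9 without HET3 and 5 and 3 without KO3. *Hist1h1e* had the most negative difference at low counts (3.37 in HET3 and 1.09 in KO3, against 17.3 and 10.7 in HET1 and HET2 and 10.9 and 6.96 in KO1 and KO2 and 15.9, 4.96 and 9.62 in WT1 to WT3), and *H3f3b* was at 0.38. Of 251 *Zfp* zinc finger genes 4 were higher (1.59%) and 13 lower (5.18%), the latter near the share over all genes, and 8 and 19 without HET2 and 4 and 20 without HET3 or without KO3 (*Zfp365* 0.15, *Zfp474* −1.42). Splicing factors of the SR and hnRNP families had 0 of 31 apart (2 lower with quantile normalization) and a median of −0.15, with *Srsf3* at −0.48 and *Hnrnpa2b1* at −0.36. Of 78 potassium channel genes 6 were higher (7.69%) and 4 lower (5.13%), and 10 and 5 without HET2 and 6 and 2 without KO3. *Kcng1* (1.12) and *Kcng3* (−1.36) of one subfamily lay at opposite ends.

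The genes apart differed in their transcripts from the rest. For each gene the longest protein-coding transcript was used, with values for 14233 of the 14239 genes. Median GC content was 53.3% in the genes that were higher, 49.6% in those that were lower and 50.5% in all genes tested. In the tenth of genes with the lowest GC content, 2.53% were higher and 6.25% lower, and in the tenth with the highest, 8.57% were higher and 4.0% lower. The Spearman rho of the difference with GC content was 0.17 over genes. Among the other libraries it was −0.24, 0.20 and 0.067 for each WT library against the mean of the other 2, −0.14 for HET1 minus HET2 and −0.080 for KO1 minus KO2.

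Genes in the bins of shortest transcripts were more often lower, while the Spearman rho of the difference with transcript length was 0.041 over genes. Of 39 genes with transcripts up to 500 bases 25.6% were lower and 10.3% higher, and of 209 with 500 to 750 bases 19.1% were lower and 3.83% higher. Above 6000 bases 2.96% were lower and 3.16% higher. *mt-Atp8* and *mt-Nd3*, with 204 and 348 bases, are in the shortest class, and *Mdn1* and *Dync1h1*, with 17970 and 14342 bases, are among the longest genes named. The share also went with the level in WT mice, which took no part in the difference: in the lowest sixth (up to a normalized count of 99.8) 5.01% were higher and 13.1% lower, and in the highest sixth (above 2991) 6.74% were higher and 1.10% lower. The Spearman rho of the difference with the mean WT level was 0.24 over genes. The levels are not corrected for length.

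**Figure D5:**
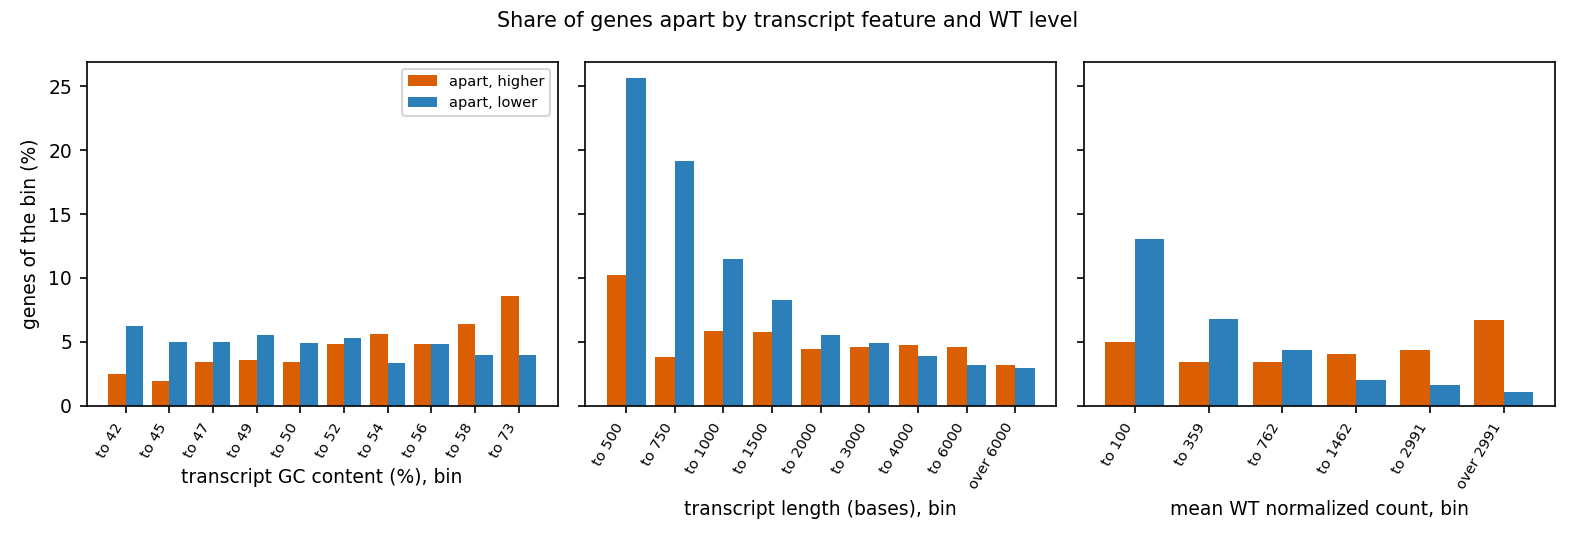
Share of genes (percent, vertical) that were apart and higher or apart and lower in HET3 and KO3, in bins of transcript GC content, transcript length and mean WT normalized count (horizontal, upper bin limits). The share of lower genes falls from 25.6% to 2.96% with length and from 13.1% to 1.10% with level, while that of higher genes goes from 2.53% to 8.57% with GC content.

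Measures of the libraries themselves also set HET3 and KO3 apart. The summed normalized count was 33790296 in HET3 and 33397415 in KO3 and between 30830020 and 32888468 in the other 7 libraries. Of 15464 genes, 239 were listed at 0 in HET3 and 192 in KO3, against 181 in WT1 and 84 to 160 in the other 6. The lowest values of a library pile up near the worth of 1 read, which was at a normalized count of 1.14 in HET3 and 1.10 in KO3, and between 0.804 and 1.04 in the others. Around that level, 54.2% of the values in HET3 and 67.1% in KO3 were within 10% of it, against 71.3% to 77% in the other libraries. The mitochondrially encoded share of all counts was 6.02% and 6.64%, against 8.56% to 9.72%. The number of reads is not known from these values, and the part of depth, transcript length or base composition in the differences was not tested.

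The WT libraries show where unmutated mice fell on the same axis. They did not enter the difference, although they entered the principal components in which HET3 and KO3 stood out. Over the 644 genes that were higher, the mean level above HET1, HET2, KO1 and KO2 was 0.84 in HET3 and 0.76 in KO3 on the log2 scale, and −0.023, 0.17 and 0.17 in WT1, WT2 and WT3. Over the 687 that were lower it was −0.89 and −0.90, and −0.078, −0.30 and −0.11. The position on the axis, the mean of the first value and the second with its sign turned, was 0.027, 0.24 and 0.14 for WT1 to WT3 (0.14 ± 0.10, SD, n = 3), against 0.87 for HET3 and 0.83 for KO3. The genes were chosen so that HET1, HET2, KO1 and KO2 lie near 0 and HET3 and KO3 far from it, so the distance between these ends is not a finding, and nothing is read from the nearness of the WT libraries to either. Among the 3 WT mice, WT2 had the highest position and WT1 the lowest.

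Both HET3 and KO3 were above all 3 WT libraries in 586 of the 644 higher genes (91.0%) and below them in 501 of the 687 lower ones (72.9%). Over all genes tested the same held for 3316 (23.3%) and 3058 (21.5%). A higher share among the genes apart follows from choosing them for high or low values in HET3 and KO3, and nothing is read from it. In 58 higher and 186 lower genes at least 1 WT library thus reached HET3 or KO3, as in *Dlk1*, *Nts*, *Tac1* and *Pdyn*. Across genes, the deviation of a WT library from the mean of the other 2 had a Pearson r with the difference of −0.24 for WT1, 0.23 for WT2 and 0.017 for WT3 (14239 genes, no library shared). HET1 minus HET2 had an r of −0.14 and KO1 minus KO2 of 0.0063. WT3 carries the number 3 as well and did not lie with HET3 and KO3.

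The comparison of KO with HET was fitted without replicate numbers, and HET3 and KO3 were part of it, so that their distance from the other libraries entered its residual spread. In limma with Benjamini-Hochberg adjustment over all 9 libraries, 0 of 14239 genes (0%) passed an adjusted p of 0.05, and 186 (1.31%) had an unadjusted p under 0.05. The standard error of KO minus HET had a median of 0.27 in the higher and 0.33 in the lower genes, against 0.15 in all genes. The genes apart were chosen for a departure within both genotypes, which fixes a larger standard error in this fit, so no count of them is read from it. In a fit that blocked on replicate number the medians were 0.18, 0.25 and 0.12, and 318 of all genes (2.23%) were at an unadjusted p under 0.05, with 0 past the adjusted threshold. Without HET3 and KO3 the counts over all genes were 0 and 227.

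*Shank3* itself did not take part in the difference. Its normalized count was 8049.8 in HET3 and 10578 in KO3, against 7575 and 7098 in HET1 and HET2 and 10237 and 10798 in KO1 and KO2 and 7209, 8812 and 6043 in WT1 to WT3 (log2 difference 0.072, spread 0.061). All 3 KO libraries were above all 3 HET libraries, and KO3 and HET3 were within or near the range of their own genotype. The log2 fold change of KO against HET was 0.48 (SE 0.13), with an adjusted p of 0.9999 and an unadjusted p of 0.0040 in limma with Benjamini-Hochberg adjustment. The gene-level count covers all exons and does not show whether exons 13 to 16 were read.

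Genes at the 1.5-fold limit show how small a difference is still counted. Just inside were *Sod1*, superoxide dismutase, with 9821 in HET3 and 8395 in KO3 against 5582 and 6405 in HET1 and HET2 and 6079.8 and 6175 in KO1 and KO2, and *Hpn* (both 0.59), and just outside *Usp27x* and *Tekt5* (both 0.58). On the lower side *Hells* and *Lrrc10b* (both −0.59) were just inside, and *U2surp*, a splicing factor, and *Gpatch1* (both −0.58) just outside. *U2surp* had 1316 in HET3 and 1370.3 in KO3 against 2034 and 2059 in HET1 and HET2 and 2021 and 1947 in KO1 and KO2, with a spread of 0.028, so that it was as clearly separated as many genes inside the limit.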

How the data were processed

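Striatal RNA of 9 mice was prepared with a stranded mRNA kit and sequenced. The authors estimated transcript abundance with Salmon 0.9.1 on GRCm38 with GC bias correction, imported it with tximport in R 3.6.0 and divided gene counts by DESeq2 1.19.11 size factors. The deposited signal is these normalized counts, which are not whole reads. Samples were grouped by genotype label, and columns were matched by name, with 0 columns unused.

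Genes that reached a normalized count of 10 in 3 or more of the 9 libraries (14239 of 15464) were kept and transformed as log2(value + 1). KO was compared with HET in limma 3.58.1 (R 4.3.3, trend, Benjamini-Hochberg, threshold 0.05). A planned count test could not be used without whole counts. Depth in reads is unknown, so precision comes from the spread between mice. Alternatives were pseudocounts, filters, scalings, leaving out libraries and a replicate block.

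The libraries, gene lists (35, and 4 added after the values were seen) and tests were chosen with earlier results of these data known. Genes named were the 12 with the most positive and 12 with the most negative difference among genes apart with a mean of at least 50 and no 0, the most abundant and the most different member of each list, defining markers, *Shank3* and 2 genes on each side of each limit. Other members of a list were chosen after their values were seen. Some genes that this rule names are not reported here. Symbols were found for 15457 genes. Transcript features and sequences come from GENCODE M21. Figures were drawn with matplotlib 3.10.9.

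Same-numbered HET and KO libraries had correlated deviations from their genotype means (Pearson r 0.52, 0.28 and 0.51 for numbers 1, 2 and 3). HET3 and KO3 were chosen for lying together, but HET1 minus HET2 and KO1 minus KO2, which use neither, had an r of 0.33 across genes. Since each of these same-numbered r was above 0.1, the numbers were taken to pair HET with KO, from the data alone. HET1 with KO2 was above this limit too (r 0.14), so the limit does not settle the pairing. The other pairs of unlike number had an r of −0.49 to −0.11. The replicate block over all 9 libraries also placed WT by number. WT had an r with HET of 0.32, −0.014 and 0.0054 for numbers 1, 2 and 3, and with KO of 0.24, −0.22 and 0.024. The sources used here do not say what the numbers stand for.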

Additional observations from a re-analysis of the deposited data

Results flagged for a closer look

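In 3 marker lists the summed level moved opposite ways in HET3 and KO3, above both other HET libraries in HET3 and below both other KO libraries in KO3. For medium spiny neurons the log2 change was 0.28 in HET3 and −0.32 in KO3, a difference of 0.60. For oligodendrocytes it was 0.083 and −0.73, a difference of 0.81. Their sum in HET3 (283944) was barely above that in HET2 (283272), and *Mbp*, the most abundant of them, was lower in HET3 than in HET1 and HET2. For oligodendrocyte precursors it was 0.047 and −0.14, a difference of 0.18. Only 1 of the 10 precursor markers tested had opposite signs in HET and KO (10.0%, beside 26.5% of all genes). Their median difference was 0.19 in HET and 0.011 in KO, so the opposite sums do not describe most members. Opposite signs were found in 11 of 17 markers of medium spiny neurons and 11 of 16 of oligodendrocytes. With 1 such library per genotype these differences were not tested.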

How the results depend on the processing

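With 1 such library per genotype and 3 mice per group, no estimate separates what is particular to HET3 or KO3 from what they share. The counts of genes apart stayed within 1.5 times of 644 and 687 under a pseudocount of 5, no filter, a mean of at least 50, median-of-ratios rescaling, quantile normalization and, chosen after seeing the data, centring within bins of GC content, length and level (614 and 553). Quantile normalization kept 490 of the 644 and 471 of the 687, and the centring 494 and 504. Leaving out each mutant library gave 644 to 1039 higher and 741 to 1125 lower genes, the most without KO3 and without HET3, where the rule rests on 1 genotype. The first component held 26.7% to 44.0% of the variance over its other settings (30.1% to 37.6% when leaving out each library), and in each of these settings HET3 and KO3, or the one of them that was not left out, lay at its end beyond the other libraries, as they were chosen to. Positions of the WT libraries moved by less than their SD with a pseudocount of 5 and with quantile normalization. The slope of each WT library's deviation on the difference was −0.20, 0.18 and 0.015 for WT1 to WT3. Of 429 list medians under the settings of the gene counts other than the centring, 21 moved by more than a limit set for each list. Of these, 7 moved without HET3 and 8 without KO3. The limit was the SD over list members of the mean of HET1 minus HET2 and KO1 minus KO2. It is wide for a median, so a median counted as not moved need not be stable. The meninges median of 0.49 was counted as not moved at −0.035 without HET1 and at 0.92 without HET2.

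For KO against HET, 0 genes passed the adjusted threshold in limma under every setting run. At an unadjusted p under 0.05, the replicate block gave 318 genes against 186 without it, and 705 with HET and KO libraries alone. Leaving out each library gave 141 to 303 genes, the most without HET2 (303), then without HET3 (288). DESeq2 and edgeR were not run, since the values are not counts.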
